A study of Homo sapiens with 10 samples.

Results

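The comparison described here sets 48 h of dasatinib against 24 h of the same drug in MDA-MB-231 cells. Both times lie within treatment, so the question is how gene expression went on changing during the second day on the drug. The comparison rests on 4 of the 10 libraries of the series, namely both libraries labelled 48 h and both labelled 24 h. MDA-MB-231 is a human triple-negative breast cancer line of the mesenchymal-like basal B type, wild type by its genotype label, and dasatinib is a small-molecule inhibitor of SRC family and ABL kinases. The concentration was 100 nM, which is not in the sample labels. The other 6 libraries, a pair each at 0 h, 6 h and 12 h, were used to place the levels in time. Both 0 h libraries carry sham in their titles but dasatinib in the treatment label, and their use as a baseline without drug rests on the titles. The labels call the libraries of a time biological replicates of 1 cell line. Untreated cells kept for 24 or 48 h were not analysed here, so time on the drug and time in culture, with any change in cell density or medium, cannot be told apart.

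Much of what follows concerns 2 gene programmes whose promoters are well known. Interferons bind cell-surface receptors and act through JAK kinases on transcription factors that bind the interferon-stimulated response element in the promoters of antiviral genes. Genes of mitosis are transcribed late in the cell cycle through the cell cycle homology region and nearby CCAAT boxes, which bind MuvB complexes with B-MYB or FOXM1 and the factor NF-Y. Breast cancer cells can keep many interferon-stimulated genes on without infection, and mitotic genes are low in cells that have left the cycle.

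Promoter sequences are shown because members of each of the 2 lists moved together between 24 and 48 h. The 4 genes of each set were picked among called members whose promoter holds the motif, as those with the smallest adjusted p. Genes on a single chromosome were left out of this choice. Every window shown thus holds the motif, while the promoters of some other members do not. Windows from 250 bases before to 50 bases after the start site were taken from RefSeq (GRCh38.p14), and 110 bases of each are printed 5′ to 3′ on the strand of the gene. In the first set, capitals mark the core of the interferon-stimulated response element, which is GAAA, any 2 bases and GAAA again, searched on both strands. A run of TTTC, any 2 bases and TTTC is the same core on the opposite strand. The 2 overlapping copies in *BST2* form a single run of capitals.
BST2 (chr19:17405695-17405804, minus strand): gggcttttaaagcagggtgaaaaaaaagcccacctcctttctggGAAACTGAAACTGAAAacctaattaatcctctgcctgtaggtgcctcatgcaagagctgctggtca
IFITM1 (chr11:313980-314089, plus strand): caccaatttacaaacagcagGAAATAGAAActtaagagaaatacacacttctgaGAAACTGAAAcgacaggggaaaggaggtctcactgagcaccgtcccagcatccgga
IFI27 (chr14:94110591-94110700, plus strand): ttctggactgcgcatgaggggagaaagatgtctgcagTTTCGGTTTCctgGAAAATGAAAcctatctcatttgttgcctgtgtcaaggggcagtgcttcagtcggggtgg
IFI44L (chr1:78620325-78620434, plus strand): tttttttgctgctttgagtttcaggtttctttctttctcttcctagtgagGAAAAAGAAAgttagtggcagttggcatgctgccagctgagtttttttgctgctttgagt
The element was found in 26 of the 43 interferon-stimulated genes with a RefSeq promoter entry (60.5%), against 996 of all 27305 promoter windows (3.65%). Among the 11760 windows of tested genes the share was 2.93%. It was in 22 of the 36 members that rose at 48 h (61.1%) and in 4 of the 7 others (57.1%), which are close shares.

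In the second set, capitals mark TTTGAA, the core of the cell cycle homology region, and the CCAAT box. Both were searched on both strands, and the letters of the 2 motifs do not overlap in these windows. TTCAAA in *GTSE1* is TTTGAA read on the opposite strand.
CCNB2 (chr15:59105065-59105174, plus strand): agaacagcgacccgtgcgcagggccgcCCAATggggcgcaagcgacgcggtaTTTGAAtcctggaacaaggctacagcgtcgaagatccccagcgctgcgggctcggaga
PLK1 (chr16:23678808-23678917, plus strand): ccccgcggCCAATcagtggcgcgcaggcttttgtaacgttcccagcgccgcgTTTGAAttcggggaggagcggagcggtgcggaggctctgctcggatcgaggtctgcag
CDC20 (chr1:43358864-43358973, plus strand): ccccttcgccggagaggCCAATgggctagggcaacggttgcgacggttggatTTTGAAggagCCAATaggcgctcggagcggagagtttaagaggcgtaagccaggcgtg
GTSE1 (chr22:46296792-46296901, plus strand): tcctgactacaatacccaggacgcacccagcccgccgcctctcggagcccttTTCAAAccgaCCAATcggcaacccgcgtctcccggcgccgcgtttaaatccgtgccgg
TTTGAA was found in 50 of 84 mitotic promoters (59.5%), in 3 of 60 promoters of DNA replication genes (5.0%) and in 15.4% of all promoter windows. Among the 11760 windows of tested genes the share was 10.1%. Of the called mitotic genes 47 of 80 held it (58.8%), and of the others 3 of 4. CCAAT was found in 57 of the 84 mitotic promoters (67.9%), in 32 of the 60 replication promoters (53.3%) and in 35.7% of all windows (36.3% for tested genes). These letter matches are a description of the windows and no evidence that a factor binds there.

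**Figure D1:**
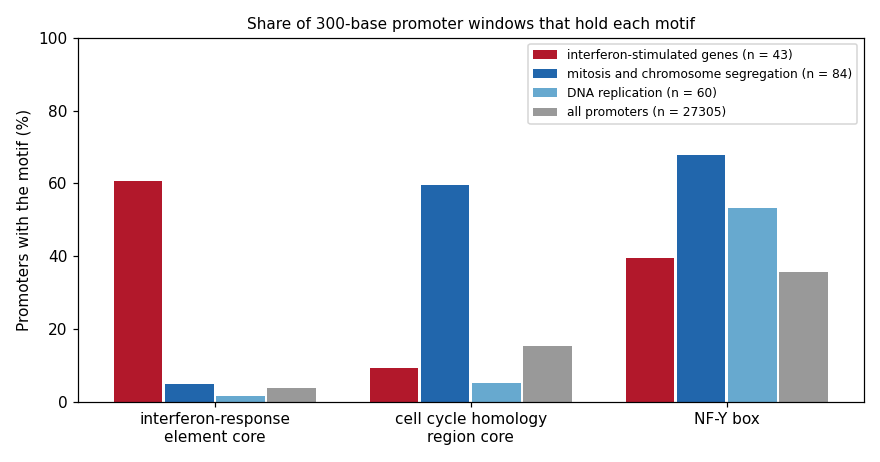
Share of 300-base promoter windows (y axis, percent) that hold each of 3 motifs (x axis) among interferon-stimulated genes, mitotic genes, DNA replication genes and all promoters. The interferon-response core was in 60.5% of interferon-stimulated promoters against 3.65% of all promoters, and the cell cycle core in 59.5% of mitotic promoters against 15.4% of all.

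The 48 h libraries held 48950416 and 43226040 gene counts and the 24 h libraries 49133774 and 41693920. Levels are given as CPM, gene counts scaled to library size with TMM factors. A gene is called changed where edgeR's quasi-likelihood test gave a Benjamini-Hochberg adjusted p below 0.05 over the 14998 genes that passed the filter on low counts. By this rule 1876 genes were higher at 48 h (12.5% of those tested) and 1929 were lower (12.9%), with a median log2 fold change over all tested genes of -0.0057. Most changes were small, since 197 genes rose (1.31%) and 163 fell (1.09%) by 2-fold or more. At an unadjusted p below 0.05 the shares were 17.4% higher and 17.9% lower, by DESeq2 12.7% and 12.4%, and after removal of trends with transcript length and GC content 11.8% and 11.6%. The counts depend on the libraries in the fit. In a fit of all 10 libraries, including a 12 h library that stood apart (12 h replicate 1), 299 genes were higher (1.9%) and 202 lower (1.28%), and 500 of these 501 were called with the same sign in the 4-library test. When 48 h replicate 1 was left out 8.65% were higher and 9.21% lower, and for 48 h replicate 2 the shares were 7.84% (1176 genes) and 7.49% (1123 genes). They were 10.3% and 10% without 24 h replicate 1, and 10.1% and 9.67% without 24 h replicate 2. Counts of list members given below are to be read against the shares of the same fit. In RNA from whole cultures, a change in the share of cells that express a gene and a change in RNA per cell cannot be told apart.

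Interferon-stimulated genes rose together in the second day. Of the 56 list members tested, from 58 listed, 46 were higher at 48 h, against 12.5% of all genes tested, and their median log2 fold change was 0.61. None was lower by edgeR, by DESeq2 or at an unadjusted p below 0.05, and all 56 fold changes were above 0. The summed level of the 56 genes was 7344 and 7325 CPM at 0 h, 4658 and 4748 CPM after 6 h, 5039 and 5398 CPM after 12 h, 7966 and 8168 CPM after 24 h, and 12610 and 12520 CPM after 48 h. The list thus stood below its 0 h level at 6 and 12 h, somewhat above it at 24 h, and further above it in both 48 h libraries. Leaving out any 1 of the 4 libraries left 44 to 46 members called, removing the trend with transcript length and GC content left 46, and the fit of all 10 libraries left 27.

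*BST2* encodes tetherin, a membrane protein that holds budding virus at the cell surface. It had 61.6 and 62.2 CPM at 48 h, against 11.1 and 13.6 CPM at 24 h (log2 fold change 2.33 ± 0.11 SE, adjusted p = 1.63e-25). *IFITM1*, a membrane protein that blocks viral entry, had 42.6 and 46.7 CPM at 48 h, against 10.2 and 13.1 CPM at 24 h (log2 fold change 1.93 ± 0.12 SE, adjusted p = 3.31e-20). *MX2*, a dynamin-like GTPase that restricts retroviruses, had 104 and 103 CPM at 48 h, against 42.5 and 40.01 CPM at 24 h (log2 fold change 1.33 ± 0.089 SE, adjusted p = 4.16e-19). All 3 were picked for the smallest adjusted p of the list, so a wide gap between times and close replicates follow from the choice. *IFI27* had 111 and 121 CPM at 48 h, against 42.9 and 53.5 CPM at 24 h, and *IFI44L* had 346 and 387 CPM at 48 h, against 175 and 187 CPM at 24 h. In the fit of all 10 libraries *IFI27* was no longer called (adjusted p = 0.0738), while *IFI44L* was (adjusted p = 0.00395).

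Over the time course *BST2* had 6.14 and 7.05 CPM in the 0 h libraries, 5.02 and 5.38 CPM after 6 h, 0.671 and 3.94 CPM after 12 h, 11.1 and 13.6 CPM after 24 h, and 61.6 and 62.2 CPM after 48 h. Its 12 h libraries were far apart, and both 48 h values exceeded every earlier one. *IFI44L* had 129 and 126 CPM in the 0 h libraries, 44.8 and 39.9 CPM after 6 h, 94.4 and 77.3 CPM after 12 h, 175 and 187 CPM after 24 h, and 346 and 387 CPM after 48 h, so it was lowest at 6 h and its 24 h values already exceeded those at 0 h.

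By role, 35 of 38 tested antiviral effectors rose, with the 2′-5′ oligoadenylate synthetases *OAS1* (1.65-fold), *OAS2* (2.04-fold) and *OAS3* (1.74-fold) among them. The ISG15 conjugation pathway and its brakes had 5 of 6 members higher, including *UBE2L6*, the E2 enzyme for ISG15 (1.79-fold), and *USP18*, which removes ISG15 and restrains the receptor (1.74-fold). Among sensors and transcription factors 6 of 12 rose. They included the RNA sensors *RIGI* (1.64-fold) and *IFIH1* (1.75-fold), the adaptor *STING1* (1.38-fold) and the transcription factors *STAT2* (1.51-fold) and *IRF7* (1.39-fold). The 10 tested members that were not called were *DHX58*, *TLR3*, *CGAS*, *IRF1*, *IRF2*, *IRF9*, *IFIT2*, *ISG20*, *TRIM5* and *HERC5*, with log2 fold changes between 0.076 (*DHX58*) and 0.32 (*IRF9*). *IRF9*, the DNA-binding partner of STAT2, had 6.901 and 7.66 CPM at 48 h and 5.41 and 6.26 CPM at 24 h (adjusted p = 0.254).

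The interferon genes themselves were looked up after these values had been seen. *IFNB1*, which encodes interferon-beta, had 0 counts in all 4 libraries, where 3 counts would stand for 0.0595 to 0.068 CPM. The type III interferon *IFNL1* had 9.73 and 11.4 CPM at 48 h and 6.96 and 10.04 CPM at 24 h and was not called (adjusted p = 0.196). *IFNL2* had 5.94 and 5.24 CPM at 48 h, against 2.42 and 3.51 CPM at 24 h (log2 fold change 0.91 ± 0.24 SE, adjusted p = 0.00305), and *IFNL3* had 7.12 and 6.05 CPM at 48 h, against 2.81 and 3.49 CPM at 24 h (log2 fold change 1.06 ± 0.23 SE, adjusted p = 2.33e-04). The coding sequences of *IFNL2* and *IFNL3* are nearly identical, so reads may be split between them. In the fit of all 10 libraries neither was called (adjusted p = 0.259 for *IFNL2* and 0.519 for *IFNL3*). The receptor chain *IFNLR1* had 17.6 and 17.4 CPM at 48 h and 15.4 and 13.6 CPM at 24 h (adjusted p = 0.148), and *IFNAR1* had 56.02 and 52.1 CPM at 48 h and 55.4 and 55.9 CPM at 24 h (adjusted p = 0.809).

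**Figure D2:**
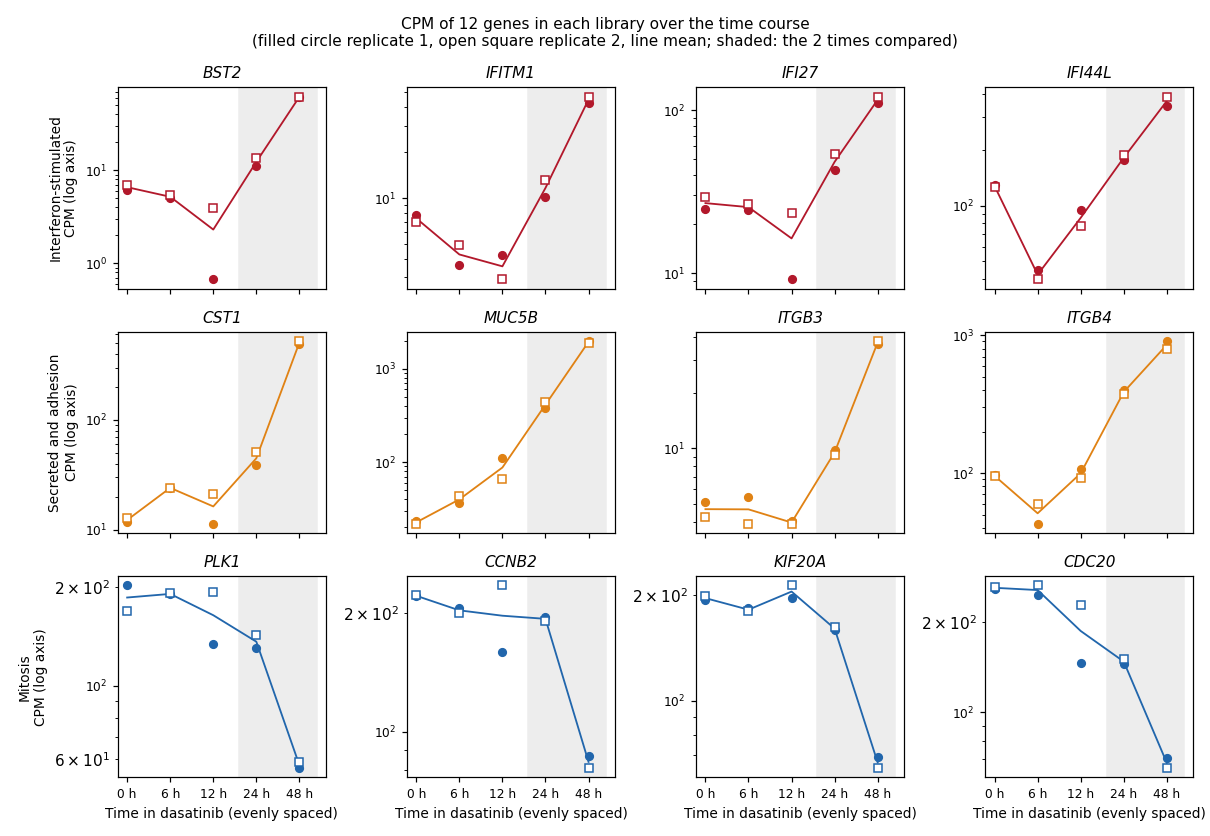
CPM (y axis, log scale) of 12 genes in each of the 10 libraries by time in dasatinib (x axis), with the 2 times compared shaded, and the line joining the means of 2 replicates. In the upper 8 panels both 48 h libraries lie above both 24 h libraries, and in the lower 4 panels, which hold mitotic genes, both lie below.

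Class I antigen presentation, which shows cytosolic peptides to T cells, moved the same way in part. Of 22 members tested, 10 rose and 1 fell, with a median log2 fold change of 0.28. *HLA-B* had 102 and 96.8 CPM at 48 h, against 33.9 and 46.5 CPM at 24 h (log2 fold change 1.31 ± 0.11 SE, adjusted p = 1.89e-11). HLA genes are highly variable and alike, so their counts against a reference genome are uncertain. The light chain *B2M* had 794 and 875 CPM at 48 h, against 595 and 665 CPM at 24 h (adjusted p = 1.05e-04). *PDIA3* and *CALR*, which fold class I chains in the endoplasmic reticulum, rose 1.53-fold and 1.41-fold. *PSMB10*, an immunoproteasome subunit, fell to 5.11 and 5.67 CPM at 48 h, against 8.46 and 8.91 CPM at 24 h (log2 fold change -0.68 ± 0.19 SE, adjusted p = 0.00508). In the edgeR fit of all 10 libraries 0 of the 22 were called, against 3.19% of all genes, while DESeq2 on the 4 libraries, like an unadjusted p below 0.05, gave 11 higher and 1 lower.

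Cytokine and NF-kappaB genes had 14 of 41 tested members higher (34.15%, against 12.5% of all genes). None was lower by edgeR or DESeq2, and 1 was lower at an unadjusted p below 0.05. *CSF1*, the growth factor of macrophages, had 549.5 and 488 CPM at 48 h, against 269 and 282 CPM at 24 h (log2 fold change 0.91 ± 0.081 SE, adjusted p = 4.01e-14). *TNFSF15*, a TNF family ligand, had 12.9 and 14.1 CPM at 48 h, against 3.61 and 3.81 CPM at 24 h (log2 fold change 1.85 ± 0.18 SE, adjusted p = 2.01e-12). *CCL2*, a chemokine for monocytes, had 99.7 and 109.8 CPM at 48 h, against 54.04 and 61.2 CPM at 24 h (log2 fold change 0.86 ± 0.088 SE, adjusted p = 4.84e-12). These 3 genes had the smallest adjusted p of the list, so the gap between their groups follows from the choice. In the fit of all 10 libraries 7 members were called higher. Leaving out 48 h replicate 1 gave 1 member lower.

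Mitotic genes had the highest share of lower members among the 39 lists examined. All 104 members passed the filter, and 99 were lower at 48 h against 12.9% of all genes tested, with a median log2 fold change of -0.77. None was higher by edgeR, by DESeq2 or at an unadjusted p below 0.05. Leaving out any 1 library left 95 to 98 members called lower, removal of the length and GC trend left 100, and the fit of all 10 libraries left 66.

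*CCNB1* encodes cyclin B1, which activates CDK1 at entry into mitosis. It fell to 94.4 and 102 CPM at 48 h, against 226 and 225 CPM at 24 h (log2 fold change -1.201 ± 0.08 SE, adjusted p = 3.48e-19). *PTTG1*, the securin that guards sister chromatid cohesion, fell to 69.3 and 76.2 CPM at 48 h, against 172 and 182 CPM at 24 h (log2 fold change -1.28 ± 0.082 SE, adjusted p = 6.42e-20). *KIF20A*, a kinesin of the central spindle, fell to 69.2 and 64.2 CPM at 48 h, against 158 and 162 CPM at 24 h (log2 fold change -1.26 ± 0.082 SE, adjusted p = 1.18e-19). In each gene the 48 h values were less than the 24 h values by more than 2-fold. *PLK1*, the kinase of mitotic entry and exit, fell 2.37-fold, *CCNB2* (cyclin B2) 2.299-fold, *CDC20*, which activates the anaphase-promoting complex, 2.18-fold, and *GTSE1*, a microtubule-associated protein, 2.15-fold.

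The fall reached every role in the list, with 19 of 21 kinases and cyclins, 27 of 29 kinetochore and checkpoint genes, 27 of 28 genes of the spindle and cytokinesis, and all 26 genes of condensins, cohesins and mitotic exit. The 5 members that were not called were *MASTL*, *CDC25A*, *BUB3*, *SKA1* and *NUSAP1*, and of these only *NUSAP1* had a fold change above 0 (log2 0.25, adjusted p = 0.816). *FOXM1*, a transcription factor for mitotic genes, had 91.5 and 78.7 CPM at 48 h, against 173 and 152 CPM at 24 h (log2 fold change -0.93 ± 0.085 SE, adjusted p = 2.36e-13). *MKI67*, the proliferation marker Ki-67, had 156 and 150.0 CPM at 48 h, against 273 and 249 CPM at 24 h (log2 fold change -0.77 ± 0.08 SE, adjusted p = 6.69e-12).

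Over the time course, the median of the mitotic genes stayed near its 0 h level through 12 h. Relative to the 0 h mean, the list median of log2(CPM + 1) for mitosis was -0.049 and -0.065 after 6 h of drug, 0.053 and 0.0091 after 12 h, -0.58 in both libraries after 24 h, and -1.399 and -1.35 after 48 h. For DNA replication it was 0.067 and 0.12 after 6 h, -0.196 and -0.077 after 12 h, -0.91 in both libraries after 24 h, and -1.22 and -1.23 after 48 h. At 24 h the replication median was therefore the lower of the 2, and at 48 h the mitotic median was.

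DNA replication genes were lower in 42 of 70 tested members (60%, against 12.9% of all genes), with a median log2 fold change of -0.34. None was higher by edgeR, by DESeq2 or at an unadjusted p below 0.05, and in the fit of all 10 libraries 9 were lower. Genes of nucleotide supply led. *TK1*, thymidine kinase, fell to 136 and 109 CPM at 48 h, against 253 and 236 CPM at 24 h (log2 fold change -0.998 ± 0.085 SE, adjusted p = 3.78e-14). *RRM2*, the regulated subunit of ribonucleotide reductase, fell to 118 and 112 CPM at 48 h, against 212 and 194 CPM at 24 h (log2 fold change -0.82 ± 0.08 SE, adjusted p = 8.23e-13). *DUT*, which hydrolyses dUTP, fell 1.53-fold. Of the origin licensing and firing genes 16 of 31 fell, and of the polymerases, clamp and fork proteins 19 of 30. The replication clamp *PCNA* had 116 and 121 CPM at 48 h and 129 and 135 CPM at 24 h (adjusted p = 0.161), and the licensing factor *CDC6* had 68.8 and 63.7 CPM at 48 h and 66.3 and 65.9 CPM at 24 h (adjusted p = 0.984). These 2 genes were picked with their values in view.

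**Figure D3:**
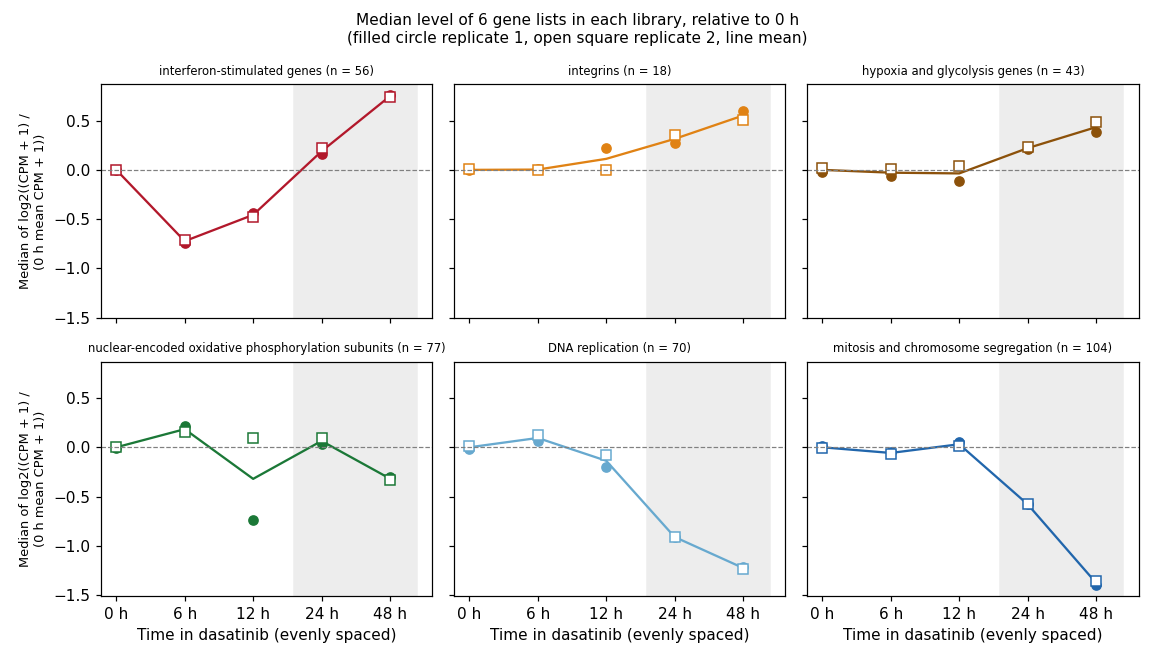
Median over list members of log2((CPM + 1)/(0 h mean CPM + 1)) (y axis) in each library by time in dasatinib (x axis), for 6 gene lists. From 24 to 48 h the interferon-stimulated median rises to 0.76 and 0.73 and the mitotic median falls to -1.399 and -1.35, while 12 h replicate 1 departs from its partner in the oxidative phosphorylation panel.

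Other cell cycle genes gave a mixed picture. Of 49 CDK inhibitors, D-type cyclins and quiescence genes tested, 7 rose and 13 fell. These were 14.29% and 26.53%, against 12.5% and 12.9% of all genes, and 1 rose and 1 fell with all 10 libraries. *CDKN2C*, which inhibits CDK4 and CDK6, fell to 66.9 and 70.3 CPM at 48 h, against 105 and 104 CPM at 24 h (log2 fold change -0.61 ± 0.084 SE, adjusted p = 4.08e-08), and *CDKN2D*, a close relative, fell 1.56-fold. *TXNIP*, a thioredoxin-binding protein linked to quiescence, rose to 172 and 185 CPM at 48 h, against 106 and 114 CPM at 24 h (log2 fold change 0.698 ± 0.08 SE, adjusted p = 1.85e-10). *CCND1* (cyclin D1), which drives G1, rose 1.35-fold and the repressor *BCL6* 1.47-fold. The number that fell was 7 when 48 h replicate 1 was left out and 8 when 48 h replicate 2 was. Of 29 histone genes tested, 2 rose and 8 fell. The falls lay mainly in replication-independent genes (7 of 10). Of 19 replication-dependent genes 1 fell and 2 rose (*H2BC5* and *H2BC21*). These 19 summed to 91.65 and 92.46 CPM at 48 h, against 84.4 and 87.33 CPM at 24 h, so their sum did not fall. *H2AX*, the variant phosphorylated at DNA breaks, fell to 131 and 115 CPM at 48 h, against 270.0 and 274 CPM at 24 h (log2 fold change -1.14 ± 0.081 SE, adjusted p = 3.86e-18). *H2AZ1* and *H1-10* fell 1.63-fold and 1.901-fold. Leaving out either 48 h library gave 5 histone genes lower and 1 higher, and 1 was higher without 24 h replicate 1.

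Apart from lists, 12 genes were taken as those with the largest rise among genes that were also called in the fit of all 10 libraries. *CST1* encodes cystatin SN, a secreted inhibitor of cysteine proteases. It had 489 and 522 CPM at 48 h, against 38.7 and 50.8 CPM at 24 h (log2 fold change 3.500 ± 0.101 SE, adjusted p = 3.41e-24). Its neighbour *CST4*, cystatin S, had 129 and 142 CPM at 48 h, against 9.63 and 14.4 CPM at 24 h (log2 fold change 3.496 ± 0.13 SE, adjusted p = 4.00e-14). Both lie in the cystatin cluster on chromosome 20 and are alike in sequence, so reads may have been split between them. *MUC5B*, a gel-forming mucin, had 1977 and 1899 CPM at 48 h, against 379 and 446 CPM at 24 h (log2 fold change 2.23 ± 0.09 SE, adjusted p = 2.73e-29). At 0 h *MUC5B* stood at 23.5 and 21.9 CPM, so that its level was higher at each later time than at the one before in the group means. *SCEL*, sciellin of the cornified envelope, rose 4.75-fold, *CAPN8*, a calpain of mucous cells, 3.95-fold, *SLITRK6*, a neuronal membrane protein, 3.73-fold, and *SPTB*, a spectrin, 3.56-fold. The remaining members of the 12 were *BST2*, *IFITM1*, *TNFSF15*, *ITGB3* and *ITGA10*.

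The 12 genes with the largest fall were chosen under the same limit, which leaves out genes not called with all 10 libraries, such as *COX8A* (log2 fold change -1.56). *CENPA*, the centromeric histone, fell to 12.97 and 15.4 CPM at 48 h, against 35.03 and 38.04 CPM at 24 h (log2 fold change -1.36 ± 0.12 SE, adjusted p = 1.23e-14). *KIFC1*, *PIMREG*, *PTTG1*, *KIF20A*, *SAPCD2* and *PIF1*, with roles in the spindle, chromosomes or division, fell by between 2.402-fold (*KIF20A*) and 2.897-fold (*SAPCD2*). *PCLAF*, which binds PCNA, fell 2.54-fold, and *CCNA1* (cyclin A1) 2.49-fold. *NMU*, the neuropeptide neuromedin U, fell to 8.73 and 7.18 CPM at 48 h, against 24.4 and 24.7 CPM at 24 h (log2 fold change -1.62 ± 0.14 SE, adjusted p = 2.26e-14). *PIR*, the iron-binding protein pirin and a target of NRF2, fell to 7.92 and 7.18 CPM at 48 h, against 19.6 and 20.3 CPM at 24 h (log2 fold change -1.398 ± 0.15 SE, adjusted p = 2.19e-11). *RPL26* had 21.4 and 17.8 CPM at 48 h, against 71.2 and 63.2 CPM at 24 h (log2 fold change -1.78 ± 0.11 SE, adjusted p = 3.57e-21). This ribosomal protein gene has near-identical copies elsewhere in the genome, so its count is uncertain.

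Integrins, the heterodimeric receptors for the extracellular matrix, rose in 10 of 18 tested members and fell in 1, with a median log2 fold change of 0.49. The shares were 55.56% and 5.56%, against 12.5% and 12.9% of all genes. *ITGA10*, a collagen receptor chain, had 57.5 and 56.6 CPM at 48 h, against 13.7 and 16.03 CPM at 24 h (log2 fold change 1.94 ± 0.11 SE, adjusted p = 2.16e-22). *ITGB3*, the beta chain of the vitronectin receptor, had 36.7 and 38.05 CPM at 48 h, against 9.81 and 9.18 CPM at 24 h (log2 fold change 1.97 ± 0.12 SE, adjusted p = 1.48e-20). *ITGB4*, the laminin receptor chain of hemidesmosomes, had 906 and 796 CPM at 48 h, against 400.2 and 374 CPM at 24 h (log2 fold change 1.14 ± 0.083 SE, adjusted p = 1.75e-17). Since these 3 genes were picked for the smallest adjusted p, their well-separated times and close replicates follow from the choice. The widely used chains *ITGB1*, *ITGA3* and *ITGA6* rose 1.41-fold, 1.63-fold and 1.41-fold. *ITGAE*, the partner of integrin beta 7, fell to 16.4 and 19.4 CPM at 48 h, against 25.5 and 29.2 CPM at 24 h (log2 fold change -0.61 ± 0.12 SE, adjusted p = 6.12e-05). With any 1 library left out 10 integrins were called higher, and with all 10 libraries 6 were.

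Extracellular matrix proteins had 25 of 71 tested members higher and 4 lower (median log2 fold change 0.20). Of the laminin chains, which form basement membranes, 6 of 10 were higher. *LAMC1* rose 1.68-fold. *FN1*, fibronectin, had 1297 and 1340.0 CPM at 48 h, against 727 and 784 CPM at 24 h (log2 fold change 0.803 ± 0.083 SE, adjusted p = 8.22e-12). Of 23 collagen chains 4 were higher and 3 lower (17.4% and 13.04%), near the 12.5% and 12.9% of all genes. By DESeq2 1 was lower, and the 3 lower calls were lost without 48 h replicate 1 or 24 h replicate 1. *COL1A1*, the main fibrillar collagen, had 8.43 and 8.68 CPM at 48 h, against 12.9 and 12.3 CPM at 24 h (log2 fold change -0.55 ± 0.16 SE, adjusted p = 0.00738), and the collagens *COL9A3* and *COL16A1* and the glycoprotein *ECM1* also fell. Leaving out 48 h replicate 1 or 24 h replicate 1 left 1 member lower.

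Enzymes that modify collagen were higher in part. Of 32 members of the crosslinking and modifying list 17 were higher and 2 lower, and 11 of the 17 collagen-modifying enzymes were among the higher ones. *P4HA1* and *P4HA2*, the prolyl hydroxylases that stabilise the triple helix, rose 1.76-fold and 1.68-fold. *PLOD2*, a lysyl hydroxylase, had 295 and 307 CPM at 48 h, against 181 and 163 CPM at 24 h (log2 fold change 0.81 ± 0.08 SE, adjusted p = 1.61e-12). *LOX*, the lysyl oxidase that crosslinks fibres, rose 1.71-fold. The transglutaminase *TGM2* and the lysyl oxidase *LOXL1* fell 1.38-fold and 1.27-fold, and 1 member was lower without 48 h replicate 2.

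Of 66 proteases and inhibitors tested, 23 rose and 3 fell, and without 48 h replicate 1 the number that rose was 15. Beside the cystatins, *CEMIP*, which mediates the breakdown of hyaluronan, had 479 and 463 CPM at 48 h, against 196 and 204 CPM at 24 h (log2 fold change 1.24 ± 0.08 SE, adjusted p = 1.06e-19). *MMP13* and *MMP14*, a collagenase and a membrane-bound activator of other metalloproteinases, rose 3.396-fold and 1.46-fold. *SERPINH1*, a collagen chaperone, *TFPI2* and *ADAMTS15* fell, by 1.24-fold, 1.35-fold and 1.47-fold, and 1 was lower without 48 h replicate 2.

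Axon guidance genes, which also steer tumour cells and vessels, had 19 of 58 members higher and 1 lower (2 lower without 48 h replicate 1). Shares in the main test were 32.76% and 1.72%, against 12.5% and 12.9% of all genes. *SEMA3A*, a secreted semaphorin, had 54.96 and 59.7 CPM at 48 h, against 36.7 and 27.3 CPM at 24 h (log2 fold change 0.84 ± 0.11 SE, adjusted p = 3.13e-08). The plexin receptors of semaphorins *PLXNA3* and *PLXND1* rose 1.64-fold and 1.52-fold. *ROBO4*, a Roundabout family receptor known from endothelium, fell to 7.63 and 7.41 CPM at 48 h, against 14.1 and 15.1 CPM at 24 h (log2 fold change -0.95 ± 0.16 SE, adjusted p = 3.76e-06).

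Genes of hypoxia and glycolysis rose in 25 of 43 members and fell in 3 (median log2 fold change 0.41). The shares were 58.14% and 6.98%, against 12.5% and 12.9% of all genes. *NDRG1*, a stress-response gene induced by hypoxia, had 1263 and 1124 CPM at 48 h, against 414 and 397 CPM at 24 h (log2 fold change 1.56 ± 0.085 SE, adjusted p = 4.98e-23). *ALDOC*, an aldolase, had 165 and 155 CPM at 48 h, against 97.8 and 94.99 CPM at 24 h (log2 fold change 0.73 ± 0.08 SE, adjusted p = 5.35e-11). *CA9*, the carbonic anhydrase used as a marker of hypoxia, had 38.5 and 40.8 CPM at 48 h, against 18.8 and 23.3 CPM at 24 h (adjusted p = 1.11e-09), and *VEGFA* rose 1.42-fold. Of the 23 glycolysis genes 12 were higher. The 3 members that fell were *DDIT4*, an inhibitor of mTORC1 (1.44-fold), *CA12* (1.28-fold) and *HIF1A* itself (1.197-fold). With all 10 libraries 7 members were higher, against 1.9% of all genes, and without 48 h replicate 1 only 1 was lower.

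Lipid genes rose across 3 lists. In the fit of all 10 libraries 3 fatty acid, 1 cholesterol and 6 lipid transport genes were higher, and none was lower. Among all genes that fit had 1.9% higher and 1.28% lower. Fatty acid synthesis and desaturation had 14 of 24 members higher. None was lower by edgeR, and 1 was lower by DESeq2 and at an unadjusted p below 0.05. The number higher was 7 when 48 h replicate 1 was left out. *SCD*, the stearoyl-CoA desaturase, had 1904 and 1816 CPM at 48 h, against 1036 and 919 CPM at 24 h (log2 fold change 0.93 ± 0.086 SE, adjusted p = 2.02e-13), *ACSL1*, a fatty acyl-CoA ligase, rose 1.95-fold and *FADS2*, the delta-6 desaturase, 1.56-fold. Cholesterol synthesis and uptake had 12 of 27 higher and 1 lower, a lower call that was lost without 48 h replicate 2, without 24 h replicate 1 and after removal of length and GC trends. *STARD4*, a sterol transfer protein, had 152 and 174 CPM at 48 h, against 117 and 111 CPM at 24 h (log2 fold change 0.52 ± 0.081 SE, adjusted p = 8.07e-07). Lipid transport and storage had 23 of 50 higher and 1 lower, and here too the lower call was lost without 48 h replicate 2 or 24 h replicate 1. *ENPP2*, autotaxin, which makes lysophosphatidic acid, had 44.8 and 52.01 CPM at 48 h, against 13.8 and 19.5 CPM at 24 h (log2 fold change 1.54 ± 0.13 SE, adjusted p = 2.60e-11). *LRP1* and the flippase *ATP8A1* rose 1.65-fold and 1.81-fold.

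Lysosome genes were higher in 29 of 66 members and lower in 3, and the number higher was 17 without 48 h replicate 1. Leaving out 48 h replicate 2 or 24 h replicate 1 left 1 lower. *PSAP*, the precursor of the saposins, had 2533 and 2502 CPM at 48 h, against 1487 and 1622 CPM at 24 h (log2 fold change 0.696 ± 0.087 SE, adjusted p = 2.66e-09). The peptidase *TPP1* rose 1.57-fold, and *GLA*, alpha-galactosidase A, fell 1.42-fold. In the fit of all 10 libraries 4 lysosome genes were higher, against 1.9% of all genes, and none was lower. Of 54 genes of the integrated stress response and of endoplasmic reticulum stress 26 rose and 7 fell. The shares were 48.15% and 12.96%, against 12.5% and 12.9% of all genes. By arm, 14 of 21 reticulum chaperones and sensors rose and 1 fell, and 12 of 33 ATF4 targets rose and 6 fell. The ATF4 targets higher were 6 without either 48 h library and 7 without either 24 h library, with 3 lower when 48 h replicate 2 was left out. Chaperones higher were then 9, and the 1 lower call among them was lost without replicate 2 of either time and was 2 without 24 h replicate 1. *HSPA5*, the chaperone BiP, had 949 and 984 CPM at 48 h, against 627 and 634 CPM at 24 h (log2 fold change 0.62 ± 0.081 SE, adjusted p = 1.07e-08), and *HYOU1*, another chaperone of the reticulum, rose 1.52-fold. The cystine transporter subunits *SLC7A11* and *SLC3A2* fell 1.302-fold and 1.36-fold. Leaving out 48 h replicate 1 gave 16 that rose, and leaving out 48 h replicate 2 gave 15, with 3 lower.

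**Figure D4:**
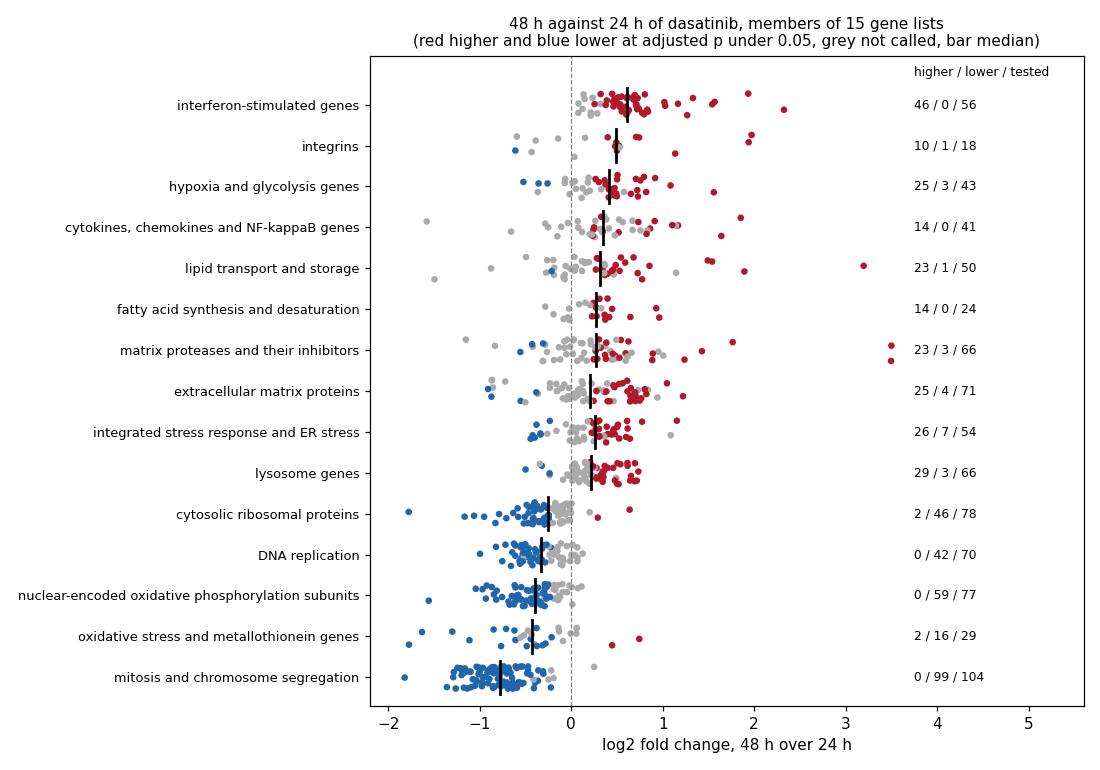
Log2 fold change of 48 h over 24 h (x axis) for each tested member of 15 gene lists (rows), with calls in red (higher) and blue (lower), uncalled members in grey, and a bar at the list median. The medians run from 0.61 for interferon-stimulated genes to -0.77 for mitotic genes, and the counts on the right are members higher, lower and tested.

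Nuclear genes for oxidative phosphorylation fell in 59 of 77 members (76.6%, against 12.9% of all genes), with a median log2 fold change of -0.39. None was higher by edgeR, by DESeq2 or at an unadjusted p below 0.05. *COX8A* and *COX6A1*, subunits of cytochrome c oxidase, had 32.2 and 30.2 CPM at 48 h, against 94.7 and 89.3 CPM at 24 h (log2 fold change -1.56 ± 0.094 SE, adjusted p = 4.68e-21), and 24.5 and 25.9 CPM at 48 h, against 47.9 and 50.9 CPM at 24 h (log2 fold change -0.97 ± 0.103 SE, adjusted p = 1.56e-11), in that order. *ATP5MC1*, a subunit of the ATP synthase ring, had 44.6 and 41.03 CPM at 48 h, against 73.9 and 82.9 CPM at 24 h (log2 fold change -0.87 ± 0.093 SE, adjusted p = 2.30e-11). Cytosolic ribosomal proteins fell in 46 of 78 members and rose in 2, with a median of -0.26. *RPS2* had 1322 and 1105 CPM at 48 h, against 2459 and 2240.0 CPM at 24 h (log2 fold change -0.95 ± 0.09 SE, adjusted p = 5.70e-13), and *RPS21* had 164 and 126 CPM at 48 h, against 315 and 336 CPM at 24 h (log2 fold change -1.17 ± 0.091 SE, adjusted p = 2.34e-12). *RPL23A* rose to 197 and 218 CPM at 48 h, against 142 and 124 CPM at 24 h (log2 fold change 0.64 ± 0.082 SE, adjusted p = 5.00e-09). The number of ribosomal protein genes lower was 23 without 48 h replicate 2, and 1 was higher without 48 h replicate 1.

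Across genes, fold changes followed transcript length. Genes whose log2 CPM averaged 2 or more were split by length into 10 classes of 1089 or 1090 genes. The median log2 fold change was -0.26 in the class of shortest transcripts and 0.11 in the class of longest. With each library's trend with length and GC content removed, the medians of the 10 classes lay between -0.029 and -0.0037. After that removal 36 oxidative phosphorylation genes were lower and 1 higher (median -0.27), and 32 ribosomal protein genes were lower and 5 higher (median -0.11). With all 10 libraries 2 were lower in each list. Ribosomal protein genes took 5.42% and 5.24% of counts at 48 h, against 6.41% and 6.79% at 24 h. The part of the length trend in these 2 results was not tested further. The interferon-stimulated and mitotic medians after removal were 0.59 and -0.76.

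**Figure D5:**
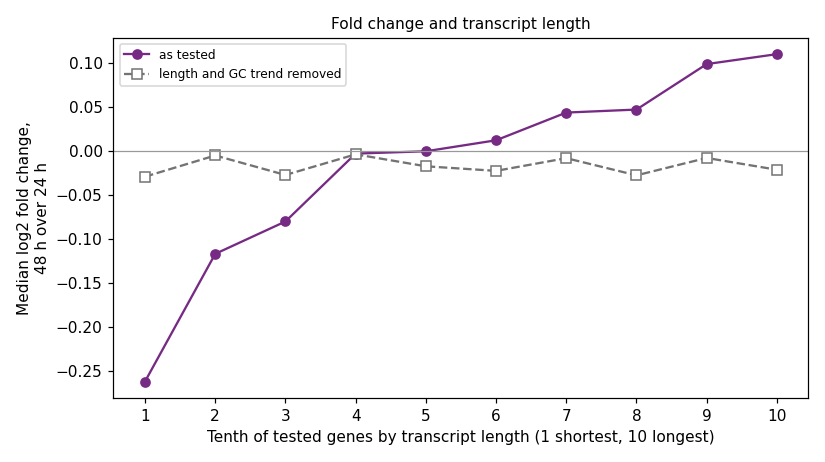
Median log2 fold change of 48 h over 24 h (y axis) in 10 classes of genes ordered by transcript length (x axis), as tested and with each library's length and GC trend removed. As tested the medians run from -0.26 in the shortest class to 0.11 in the longest, and after removal they stay between -0.029 and -0.0037.

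The 13 mRNAs encoded by the mitochondrial genome did not fall with the nuclear subunits, since 4 were higher and 1 lower. Shares were 30.77% and 7.69%, against 12.5% and 12.9% of all genes. *COX2* had 8009 and 7557 CPM at 48 h, against 4915 and 4036 CPM at 24 h (log2 fold change 0.798 ± 0.097 SE, adjusted p = 1.27e-09). *ATP8* had 138 and 139 CPM at 48 h, against 68.00 and 68.7 CPM at 24 h (log2 fold change 1.02 ± 0.082 SE, adjusted p = 7.20e-16), and its reading frame overlaps that of *ATP6*, so reads in the overlap are uncertain. *ND2* had 4590.0 and 4402 CPM at 48 h, against 6213 and 5009 CPM at 24 h (log2 fold change -0.32 ± 0.096 SE, adjusted p = 0.00952). The 13 together took 7.24% and 6.73% of counts at 48 h, against 6.80% and 5.55% at 24 h, with overlapping values. The number higher was 2 without 48 h replicate 1 and 9 without 24 h replicate 1.

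Genes of the oxidative stress response fell. Of 29 NRF2 targets, metallothioneins and metal transporters tested, 16 were lower and 2 higher (median log2 fold change -0.43). With all 10 libraries 2 were lower, against 1.28% of all genes. *FTL* and *FTH1*, the chains of ferritin, had 1173 and 1095 CPM at 48 h, against 2402 and 2508 CPM at 24 h (log2 fold change -1.11 ± 0.087 SE, adjusted p = 2.62e-16), and 273 and 240.5 CPM at 48 h, against 463 and 463 CPM at 24 h (log2 fold change -0.85 ± 0.081 SE, adjusted p = 4.37e-13), in that order. *NQO1*, a quinone reductase and standard NRF2 target, had 411 and 393 CPM at 48 h, against 684 and 686 CPM at 24 h (log2 fold change -0.77 ± 0.08 SE, adjusted p = 9.36e-12). Of the 2 that rose, *ME1* (1.36-fold) is malic enzyme, which makes NADPH and also serves lipid synthesis. Heat shock chaperones fell in 7 of 24 (29.17%, against 12.9% of all genes). With all 10 libraries 0 fell, in a fit where 1.28% of all genes did. None was higher by edgeR, by DESeq2 or at an unadjusted p below 0.05. *HSPE1*, a mitochondrial cochaperone, had 20.5 and 19.5 CPM at 48 h, against 38.6 and 39.97 CPM at 24 h (log2 fold change -0.97 ± 0.11 SE, adjusted p = 9.53e-11), and *HSPB1* (HSP27) fell 1.61-fold. The count was 4 when 48 h replicate 1 was left out. Of 130 ribosome biogenesis factors 6 rose and 26 fell (20%, against 12.9% of all genes), and 12 were lower with 48 h replicate 2 left out and 16 with 24 h replicate 1 left out. Without 48 h replicate 1, 2 were higher, and leaving out 48 h replicate 2 or 24 h replicate 2 gave 3.

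Among kinases that dasatinib inhibits and receptors that can bypass them, 16 of 50 tested rose and 3 fell. The rises lay mainly in bypass receptors and ligands (12 of 24). *MET*, the receptor for hepatocyte growth factor, had 225 and 237 CPM at 48 h, against 149 and 138 CPM at 24 h (log2 fold change 0.69 ± 0.079 SE, adjusted p = 2.36e-10), and *EGFR* had 475 and 483 CPM at 48 h, against 332 and 316 CPM at 24 h (log2 fold change 0.56 ± 0.079 SE, adjusted p = 5.20e-08). *SRC*, a main target, had 41.4 and 37.98 CPM at 48 h, against 51.9 and 51.3 CPM at 24 h (log2 fold change -0.38 ± 0.097 SE, adjusted p = 0.00207), and *CSK*, the kinase that restrains SRC, fell 1.303-fold. In the edgeR fit of all 10 libraries 0 of the 50 were called, while DESeq2 on the 4 libraries gave 15 higher and 3 lower, and an unadjusted p below 0.05 gave 19 and 3. Leaving out 48 h replicate 2 gave 1 lower. ERK feedback and immediate early genes had 17 of 45 higher and 5 lower. These were 37.78% and 11.11%, against 12.5% and 12.9% of all genes, and 1 was higher and 2 lower with all 10 libraries. *DUSP6*, a phosphatase that reports ERK activity, had 1084 and 1114 CPM at 48 h, against 585 and 576 CPM at 24 h (log2 fold change 0.92 ± 0.082 SE, adjusted p = 4.00e-14), while the immediate early genes *FOS* and *DUSP1* fell 1.801-fold and 1.48-fold. The number higher was 10 when 48 h replicate 1 was left out, and the number lower was 3 when 48 h replicate 2 was. YAP and TEAD targets had 14 of 27 higher and 2 lower (1 lower by DESeq2 or without 48 h replicate 1), with *ANKRD1* at 222 and 223 CPM at 48 h, against 148 and 145 CPM at 24 h (log2 fold change 0.599 ± 0.078 SE, adjusted p = 8.10e-09). Relative to 0 h this list's median stood at -0.401 and -0.42 at 48 h, against -0.51 and -0.61 at 24 h, so it was still below the 0 h level.

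TGF-beta, BMP and activin genes had 12 of 49 higher and 5 lower, and without 48 h replicate 2 the number higher was 6. *INHBB*, an activin and inhibin chain, had 108 and 102 CPM at 48 h, against 36.4 and 39.1 CPM at 24 h (log2 fold change 1.47 ± 0.09 SE, adjusted p = 1.22e-20). The BMP targets *ID1*, *ID3* and *SMAD6* fell 1.81-fold, 1.66-fold and 1.69-fold. Of 24 EMT genes 7 rose and 3 fell. The TGF-beta list thus had 24.49% higher and 10.2% lower and the EMT list 29.17% and 12.5%, against 12.5% and 12.9% of all genes. Over each whole list the falls were therefore no more frequent than among all genes. In the TGF-beta list, however, all 5 falls lay among the 16 tested members with the role of inhibitors and targets (31.25%). In the fit of all 10 libraries 1 member of the TGF-beta list was higher and 1 lower. *CDH11*, a mesenchymal cadherin, had 544 and 559 CPM at 48 h, against 252 and 231 CPM at 24 h (log2 fold change 1.19 ± 0.081 SE, adjusted p = 6.41e-19), and *KRT81*, a hair-type keratin, fell to 41.8 and 46.5 CPM at 48 h, against 99.5 and 98.1 CPM at 24 h (log2 fold change -1.16 ± 0.09 SE, adjusted p = 1.54e-16). The EMT factor *SNAI1* had 4.804 and 5.197 CPM at 48 h, against 7.097 and 7.39 CPM at 24 h (log2 fold change -0.53 ± 0.203 SE, adjusted p = 0.0456), and it was not called with all 10 libraries (adjusted p = 0.175). Leaving out 48 h replicate 1, 48 h replicate 2 or 24 h replicate 2 left 1 EMT gene lower. Mucins and luminal or secretory genes had 9 of 30 tested higher and 2 lower, with 21 listed genes under the filter. *AGR2*, a chaperone of mucous cells, had 116 and 119.8 CPM at 48 h, against 56.2 and 54.8 CPM at 24 h (log2 fold change 1.09 ± 0.085 SE, adjusted p = 2.62e-16), and *CD24*, a luminal surface marker, had 19.1 and 19.2 CPM at 48 h, against 8.09 and 6.801 CPM at 24 h (log2 fold change 1.36 ± 0.15 SE, adjusted p = 9.96e-11). With 48 h replicate 1 left out 5 were higher and 1 lower. The 2 lower calls were lost with DESeq2 and with 48 h replicate 2, 24 h replicate 1 or 24 h replicate 2 left out, and 6 members were higher without 48 h replicate 2.

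Of 12 genes taken from the study text, *MYO10* rose and *SRC* and *SNAI1* fell in the second day. The study names *SRC* as a target of the drug and *ACTN4* as a protein reduced in mouse cells lacking *Mmp3*. For *CAV1*, *PXN*, *SNAI1* and *VIM* its evidence in treated cells is protein or staining against untreated cells, not RNA between these times. The study also reports that the drug lowered RNA of *MYO10*, *CDC42*, *RAC1* and *DIAPH2*. For *ETS1* and *MMP3* it reports RNA and protein falling with dose and time. Values at 48 h against 24 h do not test a change from untreated cells. *ETS1*, the transcription factor at the centre of the study, had 94.6 and 95.3 CPM at 48 h and 86.2 and 77.1 CPM at 24 h and missed the threshold narrowly (log2 fold change 0.22 ± 0.085 SE, adjusted p = 0.0502). At 0 h *ETS1* stood at 176 and 177 CPM, so both times were far below the 0 h level. *MMP3*, the stromelysin, had 0.774 and 0.361 CPM at 48 h and 0.634 and 0.544 CPM at 24 h, from 38 and 16 counts at 48 h and 32 and 24 counts at 24 h, too few to tell the times apart (adjusted p = 0.97). *CAV1* had 562 and 568 CPM at 48 h and 635 and 592 CPM at 24 h (adjusted p = 0.292). *MYO10*, the myosin of filopodia, rose to 126 and 129 CPM at 48 h, against 104 and 100.5 CPM at 24 h (log2 fold change 0.32 ± 0.08 SE, adjusted p = 0.00158), a call that was lost with all 10 libraries (adjusted p = 0.117). *PXN*, *CDC42*, *RAC1*, *DIAPH2*, *VIM* and *ACTN4* were not called, with log2 fold changes between -0.15 (*VIM*) and 0.21 (*DIAPH2*). Of all 29 tested genes that the text names, 5 rose and 3 fell (17.2% and 10.3%), close to the shares among all genes, and 1 was lower without 48 h replicate 2.

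The other lists gave few calls or calls in both directions. Of 27 p53 targets 5 rose and 6 fell (18.5% and 22.2%, against 12.5% and 12.9% of all genes), and without 48 h replicate 2 the counts were 3 and 3. Of 35 BCL2 family and cell death genes 8 rose and 6 fell by edgeR (22.9% and 17.1%), against 8 and 3 by DESeq2, and leaving out 48 h replicate 2 gave 3 and 1. The number higher was 5 without 48 h replicate 1 or 24 h replicate 1, and the number lower was 3 without 24 h replicate 1. The death receptor *TNFRSF10B* had 263 and 265 CPM at 48 h, against 170.4 and 173 CPM at 24 h (log2 fold change 0.62 ± 0.078 SE, adjusted p = 2.93e-09), and *BAX*, which permeabilises mitochondria, fell 1.36-fold. Of 43 Notch and WNT genes 7 rose and 5 fell, of 36 SRF and contractile genes 4 and 3, of 32 filopodia and small GTPase genes 4 and 7, and of 18 circadian genes 2 and 1. In these last 4 lists the share higher was between 11.1% and 16.3%, and the share lower was between 5.56% and 11.6% apart from the filopodia genes (21.9%). The Notch and WNT genes lower were 2 without either 48 h library and 1 without 24 h replicate 2, and the filopodia genes lower were 4 without 48 h replicate 2 or 24 h replicate 1. For SRF genes leaving out 48 h replicate 2 gave 1 higher and 1 lower, leaving out 24 h replicate 2 gave 2 higher, and DESeq2 gave 5 lower. The WNT receptor *FZD4* had 33.5 and 32.2 CPM at 48 h, against 18.7 and 18.02 CPM at 24 h (log2 fold change 0.83 ± 0.11 SE, adjusted p = 1.90e-08).

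The identity of the cells was checked against markers. All 14 markers of basal B lines passed the filter, and 2 of them, *EGFR* included, were higher at 48 h, against 4 without 24 h replicate 1 and 1 without either 48 h library. *VIM*, vimentin, had 928 and 892 CPM at 48 h and 1047 and 966 CPM at 24 h, and *CD44* had 249 and 246 CPM at 48 h and 252 and 233 CPM at 24 h. *ESR1*, the estrogen receptor, averaged 0.367 CPM at 48 h and 0.377 CPM at 24 h, and *PGR*, *CDH1*, *KRT5* and *KRT14* did not pass the filter. *ERBB2* and *EPCAM*, listed with them as low or lost in this line, did pass it. Together with *ESR1* these 3 genes summed to 67.75 and 61.62 CPM at 48 h and 71.63 and 71.32 CPM at 24 h, so they were not all near 0. None of the 3 was called. Of 36 markers of blood, endothelial and fibroblast cells 14 passed it, with *PECAM1* higher and *CD34*, *ROBO4* and *COL1A1* lower, and without 24 h replicate 1 the number lower was 1. *CD34* was called from values of 0.122 and 0 CPM at 48 h and 0.357 and 0.453 CPM at 24 h. *PTPRC* (CD45) averaged 0.303 CPM at 48 h and 0.198 CPM at 24 h, and *COL3A1* averaged 0.251 CPM at 48 h and 0.258 CPM at 24 h. At 48 h the tested blood markers summed to 4.743 and 3.954 CPM and the fibroblast markers to 9.405 and 9.693 CPM. The 4 tested endothelial markers were not near 0, with sums of 78.09 and 75.49 CPM at 48 h. Their sums were 78.43 and 80.39 CPM at 24 h, and 146.2 and 156.2 CPM at 0 h.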

How the data were processed

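The RNA-seq libraries were made from total RNA and sequenced as paired ends. According to the submitters' processing notes and the methods, quality was checked by the authors with FastQC 0.12.1 and MultiQC 1.16. Trim Galore trimmed the reads, STAR 2.5.2b was used for alignment to hg38, and featureCounts 1.6.0 produced gene counts. The authors deposited the raw counts together with TPM values, each for 36687 symbols. The annotation and the strand setting are not given in the sources used here. The main test used the deposited counts and the alternatives also the deposited TPM values.

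Counts of the 4 libraries were filtered with edgeR's filterByExpr by time, scaled by TMM and tested with the robust quasi-likelihood test of edgeR 4.0.16 in R 4.3.3, with Benjamini-Hochberg adjustment over 14998 genes. The fit was limited to these 4 libraries because 12 h replicate 1, whose best correlation with another library was 0.976, widens a shared spread. CPM in the text is scaled by TMM factors over all 10 libraries, and the SE was derived from the fold change and its F statistic. With 2 replicates a time, p-values measure the spread between these samples. Replicates differed by more than counting noise, with a chi-square of 12.6 times its degrees of freedom at 48 h and 17.6 at 24 h. Depth of 41693920 to 49133774 counts limits the precision of genes under about 1 CPM. The edgeR step was tested on simulated data.

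Members and lists were chosen with earlier results of these data known. Named genes are the 12 with the largest change in each direction among genes called in the main test and with all 10 libraries, with a mean level of log2 CPM 2 or more and no overlap between times, plus the 3 members of each of 39 lists and direction with the smallest adjusted p, plus 12 genes of the study text. Other genes named were chosen after their values were seen. Alternatives were no filter, DESeq2 1.42.0 and its size factors, fits of 10, 9 and 8 libraries, a replicate block, limma 3.58.1 on log2(TPM + 1) and log2(TPM + 0.1), removal of length and GC trends (GENCODE 44 transcripts), a threshold of 0.01, and each library left out. Promoters come from RefSeq (GRCh38.p14). Some genes that the rule names are not reported here.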

Additional observations from a re-analysis of the deposited data

How the results depend on the processing

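Against 1876 genes higher and 1929 lower in the main test, the fit of all 10 libraries gave 299 and 202. In that fit 1 ribosome biogenesis factor was higher and 2 were lower. Limma gave 988 higher on log2(TPM + 1) and 978 on log2(TPM + 0.1), and with no minimum on TPM 351 higher and 407 lower. A threshold of 0.01 left 1259 higher and 1258 lower. With 1 library left out, when the lone sample is assumed to vary like the other time, the counts ranged from 1176 to 1550 higher and from 1123 to 1507 lower. No filter, other size factors, DESeq2, the fits of 9 and 8 libraries and removal of length and GC trends kept both counts within 1.5 times. Of the 3805 calls 3177 were also made by DESeq2 and 2910 after the removal, after which 25 of the 3805 genes had the opposite sign.

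Whether replicate numbers pair the samples cannot be decided from 2 pairs. The differences between replicates 1 and 2 at 48 h and 24 h correlated over 11151 genes at Pearson 0.157 and Spearman 0.084. A fit with the replicate block called 2053 genes higher and 2099 lower, against 1876 and 1929 in the main test.

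Signs turned in 4 uncalled genes. *MMP3* had a log2 fold change of 0.060 after removal of length and GC trends, and from -0.65 to 0.37 with 1 library left out. The range was -0.196 to 0.055 for *CDC42*, -0.11 to 0.028 for *RAC1* and -0.083 to 0.14 for *ACTN4*, which had -0.0059 after the removal. The cause was not tested. Of 197 named genes 188 were called, and 149 were called in all 4 fits with a library left out.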
